A study of Triticum aestivum with 12 samples.

Results

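VRN1 is the MADS-box gene on which the vernalization requirement of wheat turns, and bread wheat carries it as 3 homoeologues, VRN-A1 (TraesCS5A02G391700), VRN-B1 (TraesCS5B02G396600) and VRN-D1 (TraesCS5D02G401500), on chromosomes 5A, 5B and 5D. They were taken by identifier and are 3 of the 107891 genes listed in each library. VRN1 encodes a transcription factor of the APETALA1/FRUITFULL clade. In winter wheat it is held at a low level until a long cold period raises it, after which the shoot apex can turn from forming leaves to forming a spike. VRN1 in leaves is known to hold down the floral repressor VRN2 and so to permit the florigen gene VRN3 (FT1) to be expressed, and tillers, which grow out of axillary buds, carry their own apices.

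RNA-seq was read from 12 libraries of the winter cultivar AK58, with 2 libraries in each of 6 groups, namely the non-vernalized and the vernalized state of leaf, axillary bud and shoot apex. Plants without vernalization were grown for 2 weeks at 22 °C by day (16 h) and 19 °C by night (8 h). Vernalized plants were kept for 1 month at 4 °C with the same day length and then for 1 day in the greenhouse. The labels name no transgene or introduced allele. Vernalized plants were also older than the others, so that age and cold cannot be told apart, and the labels do not say whether the 2 libraries of a group came from separate plants, so that p-values measure the spread between these libraries. The tissues were not checked by marker genes, because the reference at hand paired no name with an identifier of these files.

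Values are given as TPM (reads divided by gene length and scaled to the same total in each library). The deposited TPM turned out to be whole numbers of reads multiplied by 1 factor per library and divided by 1 whole length per gene, and the read numbers quoted below were solved from them. Libraries held 51889593 to 88656376 such reads. The length that fitted was 11963 bases for VRN-A1, 13188 for VRN-B1 and 7900 for VRN-D1, against a median of 2811 for all genes. Lengths of this size are those of whole genes with introns, and VRN1 has a long first intron. A read therefore counted for more TPM in VRN-D1 than in VRN-A1 or VRN-B1, and comparisons between homoeologues are given per length and also in reads. The reference cultivar Chinese Spring, whose annotation was used, is known to carry a spring allele of VRN-D1 with a deletion in that intron.

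The homoeologues are close in sequence, which bears on how reads can be assigned to them. The primers that the study listed for amplifying them separately are given below. Such short stretches do not measure how alike the whole genes are, and the assignment of reads was not examined. Capitals mark the positions that differ between the primers.
VRN-A1 forward primer: cagcctcaaacCagctcttcA
VRN-B1 and VRN-D1 forward primer: cagcctcaaacAagctcttcT
VRN-A1 reverse primer: ctctgccctctcGcctgT
VRN-B1 reverse primer: ctctgccctctcTcctgA
VRN-D1 reverse primer: ctgccctctcGcctgC
Counted from 1 at the 5′ end of the VRN-A1 primer, the forward primers differed by C12A and A21T. The reverse primers differed by G13T and T18A for VRN-B1 and by T18C for VRN-D1. Reads that fit more than 1 homoeologue may have been shared among them, so the level of each homoeologue carries that uncertainty and the sum of the 3 carries less of it.

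Before vernalization VRN1 was close to silent. VRN-A1 had 0.0405 and 0.0421 TPM in the leaf libraries (8 and 8 reads), 0.0285 and 0.0233 TPM in those of axillary bud (9 and 9 reads) and 0.147 and 0.157 TPM in those of shoot apex (40 and 54 reads). VRN-B1 was at 0 in both leaf libraries, while axillary bud had 0.00574 and 0 TPM and shoot apex 0.00333 and 0.00264 TPM. VRN-D1 was likewise at 0 in leaf, while axillary bud had 0.00479 and 0 TPM and shoot apex 0.0111 and 0 TPM. VRN-A1 was thus the homoeologue with nearly all reads of this state, and no library had more than 2 reads of VRN-B1 or of VRN-D1. A count of 0 allows up to 3 reads, which in the leaf libraries corresponded to 0.0138 and 0.0143 TPM for VRN-B1 and to 0.0230 and 0.0239 TPM for VRN-D1.

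After vernalization all 3 homoeologues were higher in every tissue, with no overlap between the libraries of a tissue before and after. VRN-A1 reached 25.8 and 25.8 TPM in vernalized axillary bud (10058 and 10861 reads) and 36.1 and 26.5 TPM in vernalized shoot apex (10473 and 9331 reads). In vernalized leaf it reached 0.994 and 0.783 TPM (391 and 282 reads). Vernalized leaf had 0.309 and 0.196 TPM of VRN-B1, vernalized axillary bud 2.38 and 2.64 TPM, and vernalized shoot apex 10.9 and 8.67 TPM. For VRN-D1 the vernalized leaf libraries had 0.196 and 0.0463 TPM (51 and 11 reads), those of vernalized axillary bud 2.38 and 2.74 TPM, and those of vernalized shoot apex 10.6 and 10.8 TPM. By group means the apex was the highest tissue for all 3 and the leaf the lowest, and the vernalized leaf libraries differed most from each other in VRN-D1. Among all genes of its library VRN-A1 moved from above 39.5% and 38.6% of the listed genes in leaf before vernalization to above 96.7% and 96.2% of them in vernalized shoot apex. The summed TPM of the 3 homoeologues was 0.161 and 0.160 in shoot apex before vernalization and 57.6 and 46.0 after.

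**Figure D1:**
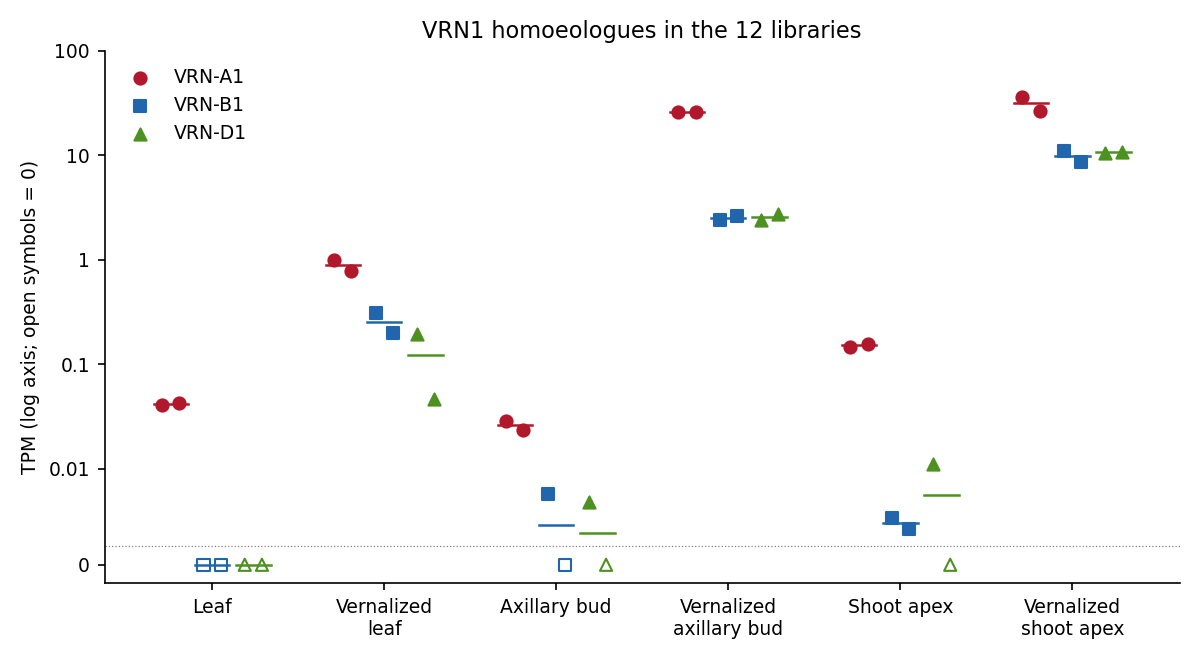
TPM of each VRN1 homoeologue (log axis) in the 12 libraries by group; each symbol is 1 library, open symbols on the bottom line are libraries at 0, and bars are group means. All vernalized libraries lie above the non-vernalized libraries of their tissue, and VRN-A1 has the highest symbols in every group.

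The size of the increase was taken from the reads of both libraries of a group, with a 95% interval that covers counting error only. In axillary bud VRN-A1 was 1007-fold higher after vernalization (637 to 1700), VRN-B1 973-fold (269 to 8040) and VRN-D1 1189-fold (213 to 47011). In shoot apex the folds were 202 (165 to 250) for VRN-A1, 3291 (911 to 27183) for VRN-B1 and 2180 (603 to 18010) for VRN-D1. The wide intervals of VRN-B1 and VRN-D1 come from the 1 or 2 reads they had before vernalization in each of these tissues. In leaf VRN-A1 was 21.6-fold higher (13.2 to 38.0). VRN-B1 was at least 17.98-fold and VRN-D1 at least 5.17-fold higher in leaf, taking 3 reads in each library at 0 as the floor.

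The response was tested with limma on log2(TPM + 1) of all 12 libraries and 60326 genes, and a gene was called at an unadjusted p under 0.01 and a fold above 2. All 3 homoeologues passed the filter on low values, a mean above 1 TPM in a group, only through vernalized axillary bud and vernalized shoot apex. Their calls below were the same with no filter. The added 1 TPM compresses the change of low genes, so fold changes on this scale are smaller than the ratios of reads. In bulk tissue, more cells that express VRN1 and more VRN1 RNA per cell cannot be told apart. In shoot apex 3 of 3 homoeologues rose, where 1.12% of all tested genes were called higher. VRN-A1 rose by 4.79 ± 0.20 (log2, SE; adjusted p = 1.68e-07), VRN-B1 by 3.42 ± 0.16 (adjusted p = 3.03e-07) and VRN-D1 by 3.54 ± 0.15 (adjusted p = 1.58e-07). They ranked 3, 21 and 17 among the 60326 genes by the size of the increase in apex. With the apex libraries fitted alone all 3 were still called at the unadjusted threshold. In that fit 0 genes passed an adjusted p under 0.05 with a fold above 2 in either direction. The adjusted p-values in apex thus rest on a spread estimated over all 3 tissues. In axillary bud 3 of 3 rose as well, where 11.4% of the tested genes were called higher. VRN-A1 rose by 4.71 ± 0.20 (adjusted p = 2.54e-08), VRN-B1 by 1.81 ± 0.16 (adjusted p = 8.68e-06) and VRN-D1 by 1.83 ± 0.15 (adjusted p = 5.26e-06), at ranks 80, 1788 and 1728.

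In leaf 0 of 3 homoeologues were called by limma on this scale, where 12.3% of the tested genes were called higher. The difference was 0.86 ± 0.20 for VRN-A1 (adjusted p = 0.00231, below a fold of 2), 0.32 ± 0.16 for VRN-B1 (adjusted p = 0.0801) and 0.16 ± 0.15 for VRN-D1 (adjusted p = 0.343). At an unadjusted p under 0.05 the count was 1 of 3. With a pseudocount of 0.1 VRN-A1 (2.80) and VRN-B1 (1.80) were called and VRN-D1 (1.06, adjusted p = 0.0208) missed the unadjusted threshold. After median-of-ratios scaling VRN-A1 was called as well, at 1.32. With limma-voom on the recovered reads, a choice made after the data were seen, all 3 were called in leaf, at 5.12, 7.53 and 5.46, of which the values of VRN-B1 and VRN-D1 are no bounds because their leaf libraries had 0 reads before. The level after vernalization in leaf was below the added 1 TPM for each homoeologue. The median of all tested genes moved by -0.90 (leaf), 0.29 (axillary bud) and -0.06 (shoot apex), and by -0.02, 0.05 and 0.00 after median-of-ratios scaling. Relative to the median gene on the unscaled values, VRN-A1 was higher by 1.75 (leaf), 4.42 (axillary bud) and 4.86 (shoot apex). VRN-B1 was 1.22, 1.52 and 3.48 higher than the median gene in these tissues, and VRN-D1 1.06, 1.54 and 3.60. In leaf the homoeologues were at or near 0 before vernalization and could hardly fall with the median gene. Their relative leaf values thus hold the median shift of -0.90 beside their own 0.86, 0.32 and 0.16, and are no measure of a larger rise. After median-of-ratios scaling 1 of 3 was called in leaf.

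**Figure D2:**
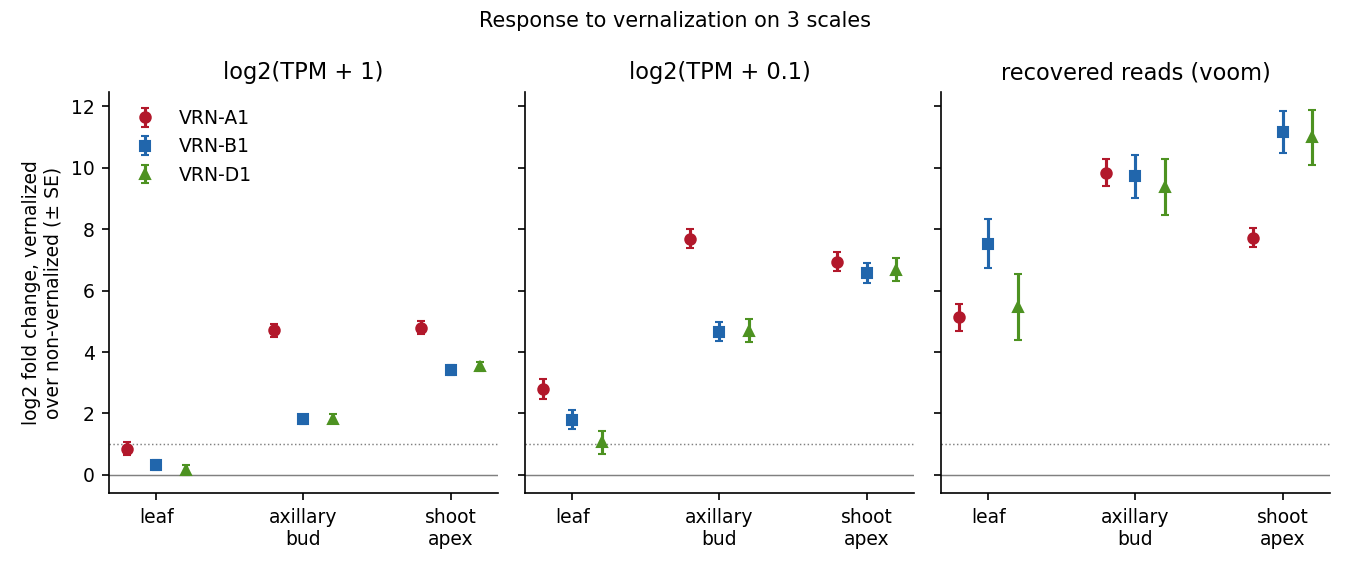
Log2 fold change with vernalization of each homoeologue in 3 tissues, ± SE of the fit, on log2(TPM + 1), log2(TPM + 0.1) and recovered reads (limma-voom); the dotted line is a fold of 2. Leaf values run from 0.16 to 0.86 with a pseudocount of 1 and from 5.12 to 7.53 on recovered reads, while axillary bud and shoot apex lie above the dotted line on each scale.

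**Figure D3:**
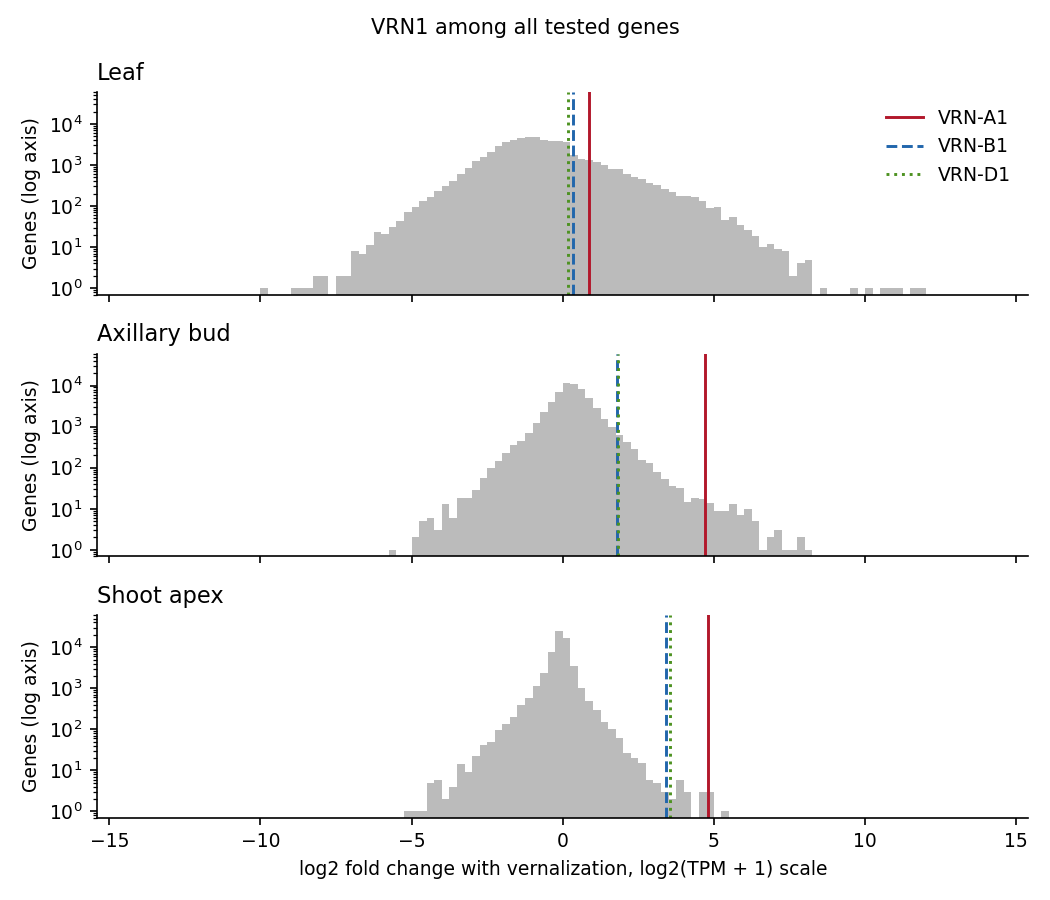
Number of tested genes (log axis) by log2 fold change with vernalization in each tissue, in steps of 0.25, with VRN1 homoeologues as vertical lines. The lines stand at 3.42 to 4.79 in the far right tail of shoot apex, at 1.81 to 4.71 in axillary bud, and at 0.16 to 0.86 inside the bulk of the wide leaf distribution.

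Taken over all tissues, the mean increase on the log2(TPM + 1) scale was 3.45 for VRN-A1, 1.85 for VRN-B1 and 1.84 for VRN-D1. In the exact permutation test of the vernalization labels within tissues (two-sided) each gave p = 0.00926, the smallest value that this design allows. Each p was also 0.00926 after Benjamini-Hochberg adjustment over the 3 homoeologues. All 6 vernalized libraries lay above the non-vernalized libraries of their own tissue for each homoeologue.

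The response was larger in axillary bud and shoot apex than in leaf. On the log2(TPM + 1) scale limma put the response of bud above that of leaf by 3.85 for VRN-A1 (adjusted p = 9.44e-07), 1.48 for VRN-B1 (adjusted p = 0.000133) and 1.66 for VRN-D1 (adjusted p = 4.22e-05), where 57.0% of tested genes were called in this direction. It put the response of apex above that of leaf by 3.94, 3.10 and 3.38 (adjusted p = 1.05e-06, 9.06e-07 and 3.70e-07), where 43.6% of genes were called in this direction. Since so many genes were called higher against leaf on the unscaled values, membership in these calls is shared with much of the transcriptome. These counts depended on scaling. After median-of-ratios scaling 11093 of 60010 genes were called higher in bud against leaf and 13155 lower. For apex against leaf 10913 were called higher and 14569 lower. Against bud, the response of apex was larger by 1.61 for VRN-B1 (adjusted p = 0.000315) and by 1.71 for VRN-D1 (adjusted p = 0.000142), where 3.2% of genes were called. For VRN-A1 it was larger by 0.08 (95% interval -0.55 to 0.72, adjusted p = 0.892). The comparison of apex with bud depended on the scale. On recovered reads the rise of VRN-A1 was smaller in apex than in bud (-2.11, adjusted p = 0.0166), and the differences of VRN-B1 (1.45, adjusted p = 0.345) and VRN-D1 (1.62, adjusted p = 0.421) missed the threshold. The bud response of VRN-B1 also fell short of the call against leaf after median-of-ratios scaling (0.99) and on reads (2.19, adjusted p = 0.0878).

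The levels after vernalization can be compared without these small starting values. VRN-A1 was 1.21-fold higher in vernalized shoot apex than in vernalized axillary bud, which limma did not separate (log2 0.25, 95% interval -0.20 to 0.70, adjusted p = 0.352). VRN-B1 was 3.90-fold higher in vernalized apex than in vernalized bud (log2 1.61, adjusted p = 2.19e-05), and VRN-D1 4.18-fold (log2 1.72, adjusted p = 9.28e-06), where 2.59% of tested genes were called higher in apex. Vernalized bud exceeded vernalized leaf 29.1-fold in VRN-A1, 9.93-fold in VRN-B1 and 21.1-fold in VRN-D1, and all 3 differences were called, where 49.7% of tested genes were higher in vernalized bud. After median-of-ratios scaling that of VRN-B1 was 0.995 and was not called. The ratio of VRN-D1 rested on vernalized leaf libraries that differed from each other, and was 13.0 against replicate 1 alone and 55.3 against replicate 2 alone.

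The order of the group means was axillary bud, leaf, shoot apex, vernalized leaf, vernalized axillary bud and vernalized shoot apex for VRN-A1. The means were 0.0259, 0.0413, 0.152, 0.888, 25.8 and 31.3 TPM. Of the neighbours in this order, vernalized leaf and vernalized axillary bud were called different (log2 3.83). Vernalized leaf exceeded shoot apex by 0.71 (adjusted p = 0.00783), below a fold of 2. It was called with a pseudocount of 0.1 (1.96), after median-of-ratios scaling (1.13) and on recovered reads (2.54). The other neighbours in the order of VRN-A1 differed by no more than 0.25. On recovered reads the shoot apex before vernalization was also called above leaf for VRN-A1 (2.58, adjusted p = 0.000821) and above axillary bud (2.76, adjusted p = 0.00153). VRN-B1 and VRN-D1 were at or near 0 in the 3 non-vernalized groups and had the same order of vernalized groups. Vernalized leaf exceeded shoot apex by 0.32 in VRN-B1 (adjusted p = 0.0868) and by 0.15 in VRN-D1 (adjusted p = 0.370), and on recovered reads both were called (5.82 and 4.19). With a pseudocount of 0.1 the difference was also called for VRN-B1 (1.76).

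VRN-A1 was the most abundant homoeologue. Its TPM was above that of VRN-B1 and of VRN-D1 in 12 of 12 libraries (exact permutation test over sign flips of the within-library differences, two-sided, p = 0.000488, the smallest that this design allows, adjusted over 3 pairs 0.000732). VRN-B1 was higher than VRN-D1 in 6 of 12 libraries, equal to it at 0 in 3 and lower in 3, with a mean difference of 0.00 (log2) and p = 0.941 in the same exact permutation test. With reads in place of TPM, scaled to the same total in each library before 1 was added, the mean difference was 0.35 (exact permutation p = 0.0117). That added 1 stood for 51.9 to 88.7 reads, depending on the library. The within-library differences were also fitted with limma over 1569 to 1573 homoeologue triads, with the VRN1 triad among them. The triads came from the study's own list of triad responses to vernalization, made from these same data. Shares of triads given below refer to those tested, and whether they represent all triads of wheat was not examined. VRN-A1 exceeded VRN-B1 by 2.94 in vernalized axillary bud (adjusted p = 3.62e-09), by 1.57 in vernalized shoot apex (adjusted p = 1.30e-07) and by 0.59 in vernalized leaf (adjusted p = 4.65e-05). It exceeded VRN-D1 by 2.92, 1.45 and 0.75 in the same groups (adjusted p = 1.76e-08, 2.79e-06 and 0.000155). A difference between an A and a B homoeologue was common, passing an adjusted p under 0.05 in 58.6% of triads in vernalized axillary bud, 56.1% in vernalized shoot apex and 54.4% in vernalized leaf. Between A and D homoeologues it passed in 55.6%, 48.2% and 52.3%.

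VRN-B1 and VRN-D1 were not separated on the log2(TPM + 1) scale. Their difference in limma was -0.02 in vernalized axillary bud (95% interval -0.21 to 0.17), -0.12 in vernalized shoot apex (-0.31 to 0.06) and 0.16 in vernalized leaf (-0.03 to 0.35), and none passed the test (adjusted p = 0.872, 0.251 and 0.141), where 54.7%, 50.4% and 48.9% of triads passed. Without vernalized shoot apex replicate 1 the apex difference was -0.29 (adjusted p = 0.0430). With a pseudocount of 0.1 VRN-B1 exceeded VRN-D1 in vernalized leaf by 0.74 (adjusted p = 0.00243), while the differences in bud (-0.03, adjusted p = 0.908) and apex (-0.14, adjusted p = 0.467) did not pass. In reads, where the shorter length of VRN-D1 does not enter, VRN-B1 exceeded VRN-D1 by 0.65, 0.59 and 0.86 in these groups (adjusted p = 0.000228, 0.000453 and 1.96e-05). In bud and apex the order of VRN-B1 and VRN-D1 therefore depended on whether length was taken into account, whereas VRN-A1 was the highest by either measure.

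Among the vernalized groups the share of VRN-A1 in the triad was highest in axillary bud. VRN-A1 held 84.4% and 82.8% of the summed TPM in the vernalized axillary bud libraries, 62.7% and 57.6% in vernalized shoot apex, and 66.3% and 76.3% in vernalized leaf. Group means were 83.6% ± 1.18 (SD, n = 2), 60.1% ± 3.63 and 71.3% ± 7.10. The bud libraries did not overlap with those of apex or leaf. In reads the means were 85.3%, 63.4% and 71.9%. VRN-B1 held 8.12% in vernalized bud, 18.9% in vernalized apex and 19.9% in vernalized leaf, and VRN-D1 8.28%, 20.9% and 8.80%. The leaf mean of VRN-D1 (SD 6.07, n = 2) came from libraries at 13.1% and 4.51%. In ratios of mean TPM, VRN-A1 was 10.3 times VRN-B1 in vernalized bud and 3.20 times in vernalized apex. It was 10.1 times VRN-D1 in vernalized bud and 2.93 times in vernalized apex.

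**Figure D4:**
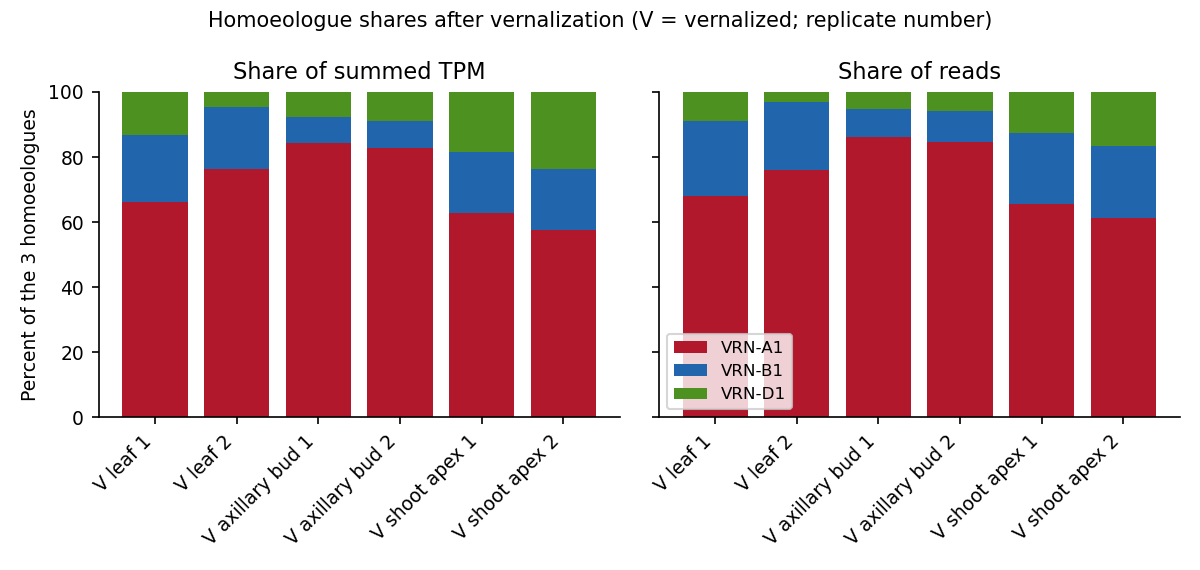
Percent of the 3 homoeologues held by each in the 6 vernalized libraries, from TPM and from recovered reads; each bar is 1 library. VRN-A1 holds 82.8% to 84.4% of the TPM in vernalized axillary bud and 57.6% to 62.7% in vernalized shoot apex, and the VRN-D1 part is smaller in reads than in TPM.

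The excess of VRN-A1 over each of the others was larger in vernalized bud than in vernalized apex, by 1.36 against VRN-B1 (limma, adjusted p = 5.42e-05) and by 1.47 against VRN-D1 (adjusted p = 0.000259), a contrast chosen after the values were seen. Of the tested triads 7.9% passed this contrast between A and B and 10.2% between A and D. Between VRN-B1 and VRN-D1 the same contrast gave 0.10 (95% interval -0.16 to 0.37, adjusted p = 0.652), which 7.07% of triads passed.

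The homoeologues also differed in how much they changed with vernalization. On the log2(TPM + 1) scale VRN-A1 rose more than VRN-B1 by 0.53 in leaf (adjusted p = 0.00162), 2.90 in axillary bud (adjusted p = 1.88e-07) and 1.37 in shoot apex (adjusted p = 7.83e-05). Unequal changes of A and B homoeologues passed in 42.4%, 9.75% and 3.0% of triads in these tissues. VRN-A1 rose more than VRN-D1 by 0.69, 2.88 and 1.25 (adjusted p = 0.00392, 3.58e-06 and 0.00236). These passed in 38.6%, 9.03% and 2.16% of triads. Between VRN-B1 and VRN-D1 the change differed by 0.16, -0.02 and -0.12 (adjusted p = 0.308, 0.953 and 0.884), which 40.6%, 8.21% and 2.1% of triads passed. With reads in place of TPM VRN-B1 rose more than VRN-D1 by 0.86, 0.64 and 0.59 (adjusted p = 0.000604, 0.0177 and 0.0479), which turned the direction in bud and apex, and with a pseudocount of 0.1 the leaf difference passed as well (0.74, adjusted p = 0.0222). Over tissues the excess was 1.60 against VRN-B1 and 1.61 against VRN-D1 (exact permutation test within tissues, two-sided, p = 0.00926 for each, the smallest possible, adjusted over 3 pairs 0.0139). With a pseudocount of 0.1 the excess in shoot apex was 0.37 (adjusted p = 0.298) and 0.27 (adjusted p = 0.887) and no longer passed. In ratios of reads the order in apex was the reverse, 202-fold for VRN-A1 against 3291-fold and 2180-fold, where VRN-A1 started from 94 reads and the others from 2 each. The folds of the 3 had overlapping intervals in bud, and in leaf the lower bounds of VRN-B1 and VRN-D1 gave no order against VRN-A1. When limma was fitted to reads in place of TPM, VRN-A1 still rose more than VRN-B1, by 1.06, 2.98 and 0.62 in these tissues. The adjusted p-values were 6.79e-05, 3.45e-07 and 0.0164. Its excess over VRN-D1 in that fit was 1.92, 3.62 and 1.21 (adjusted p = 1.86e-05, 1.08e-06 and 0.00471). The larger rise of VRN-A1 was thus kept in this fit, where 1 was added to reads scaled to the same total in each library. The added 1 stood for 51.9 to 88.7 reads, against at most 54 reads of VRN-A1 in a library before vernalization. Low counts were thus compressed in this fit too, so it cannot show the order of the rises free of the added 1. The larger rise of VRN-A1 was not seen in the ratios of reads, without an added 1, in any of the 3 tissues.

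The genes whose pattern was most like that of VRN1 were ranked by Pearson's r over the 12 libraries with the mean log2(TPM + 1) of the 3 homoeologues, as a description. The points share libraries, groups and conditions. VRN-B1 and VRN-D1 were each other's nearest genes among 60325 (r = 0.997), and VRN-A1 had an r of 0.943 with VRN-B1 and 0.936 with VRN-D1. Among the other 60323 genes, 41 had an r above 0.9 and 10 above 0.95. The highest were TraesCS2A02G174300 (r = 0.98) and TraesCS2D02G409500 (r = 0.98), to which the files and the reference give no name. Both passed the filter on low values only through vernalized axillary bud and vernalized shoot apex, where VRN1 was high. Their entry into the ranking thus depended on high values there. TraesCS2A02G174300 was at 0 in the leaf, axillary bud and vernalized leaf libraries, at 0.0513 and 0.0162 TPM in shoot apex, at 1.60 and 1.58 TPM in vernalized axillary bud and at 6.31 and 5.14 TPM in vernalized shoot apex. It differed from VRN1 in showing no read in vernalized leaf. TraesCS2D02G409500 reached 1.74 and 1.67 TPM in vernalized bud and 3.57 and 3.07 TPM in vernalized apex, from 0.0644 to 0.482 TPM in the non-vernalized libraries. The most opposite were TraesCS4A02G455000 (r = -0.92), at 1.22 and 2.06 TPM in vernalized apex against 17.2 and 14.4 TPM before, and TraesCS6B02G056800 (r = -0.89), at 7.82 and 6.14 TPM against 26.7 and 22.8 TPM. By Spearman's rho on TPM the 2 highest had 0.81 and 0.76 and the 2 most opposite -0.63 and -0.71. After median-of-ratios scaling Pearson's r was 0.97 and 0.97 for the highest and -0.81 and -0.69 for the most opposite, in the same order.

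The SPL genes (SQUAMOSA promoter-binding-like transcription factors of the age pathway, which bind a GTAC core) were the pathway list for which identifiers were at hand. Probes for stretches of the VRN1 promoter were used in the study for binding assays with the TaSPL7A protein. They are shown because they are the VRN1 promoter sequence at hand, with GTAC in capitals. GTAC reads the same on both strands and was present 1 time in each probe, with no overlapping copy. Its share among all promoters was not computed, for want of promoter sequences, and the homoeologue a probe belongs to was not stated.
VRN1 promoter probe P1-1: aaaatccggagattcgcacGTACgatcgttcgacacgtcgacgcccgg
VRN1 promoter probe P1-2: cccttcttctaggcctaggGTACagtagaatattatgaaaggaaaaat

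Of 53 SPL genes, 46 were tested. Of these, 8 passed the filter only through vernalized groups, 3 of them only through vernalized shoot apex. In shoot apex 11 rose and 0 fell by limma, beside 1.12% of all tested genes higher and 2.44% lower. The 11 included TaSPL2A (3.97) and TaSPL2D (3.97), which were among the 8. Their entry into the test depended on high values after vernalization. Axillary bud had 1 that rose and 0 that fell, beside 11.4% higher and 3.4% lower. Leaf had 0 that rose and 14 that fell, beside 12.3% higher and 46.2% lower. The median log2 fold change of the list was 0.33 in apex, 0.54 in bud and -0.59 in leaf, beside -0.06, 0.29 and -0.90 for all tested genes. TaSPL7 had all 3 homoeologues among the 11. TaSPL7D was at 2.55 and 3.01 TPM in shoot apex and at 12.8 and 13.0 TPM in vernalized shoot apex, a rise of 1.88 (adjusted p = 0.000974). TaSPL7B rose by 1.34 (adjusted p = 0.00221) in apex, and TaSPL7A by 1.05, called at limma's unadjusted threshold (adjusted p = 0.111). In axillary bud the TaSPL7 differences of 0.34 to 0.80 were not called. The bud libraries before vernalization were spread, at 1.95 and 5.56 TPM in TaSPL7A.

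The TaSPL15 differences were larger in axillary bud than in shoot apex, although this contrast between tissues was not tested. TaSPL15D was at 0.382 and 0.417 TPM in axillary bud and at 1.59 and 1.83 TPM in vernalized axillary bud (log2 0.95), just below a fold of 2 on this scale. TaSPL15A (0.78) and TaSPL15B (0.98) were also below it. All 3 TaSPL15 homoeologues passed the filter only through vernalized groups, so their entry depended on high values there. Their differences are given as a description. In shoot apex the TaSPL15 differences were 0.20 to 0.28 and were not called. TaSPL7 and TaSPL15 were lower than VRN-A1 in vernalized leaf. TaSPL15 was at 0 in both of these libraries for all 3 homoeologues and TaSPL7 was between 0 and 0.0560 TPM, against 0.783 and 0.994 TPM of VRN-A1. The r with the mean VRN1 profile was 0.67, 0.70 and 0.78 for TaSPL7A, TaSPL7B and TaSPL7D and 0.63, 0.66 and 0.69 for TaSPL15A, TaSPL15B and TaSPL15D. The median over the 46 SPL genes was 0.42, beside 0.06 over all tested genes. The highest was TaSPL2B (r = 0.89), picked out here after its values were seen, which rose by 4.58 in shoot apex (adjusted p = 7.34e-07), while its difference in axillary bud was 0.62 (adjusted p = 0.0710).

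Identifiers of this annotation are numbered along the chromosome, and the 5 genes on each side of each homoeologue were read as a comparison. Of these 30 neighbours, 24 were tested. The leaf had 2 that rose and 14 that fell, beside 12.3% of all tested genes called higher there and 46.2% called lower. The axillary bud had 2 that rose, beside 11.4%, and the shoot apex 3, beside 1.12%, with 0 that fell in bud or apex. The median log2 fold change of the neighbours was 0.47 in bud and -0.03 in apex, beside 0.29 and -0.06 for all tested genes. The 3 called in shoot apex lay close behind VRN1 on each chromosome, as the next identifier after VRN-A1 and VRN-B1 and the second place after VRN-D1. They passed the filter only through vernalized shoot apex and so had to differ there, and their values are given as a description.
The gene next to VRN-A1 was at 0 in both shoot apex libraries and at 2.30 and 1.73 TPM (349 and 318 reads) in vernalized shoot apex. The gene next to VRN-B1 was at 0 and 0 TPM before and at 3.11 and 1.73 TPM after (449 and 304 reads). The gene at place 2 after VRN-D1 was at 0.0125 and 0 TPM before and at 2.57 and 2.34 TPM after (437 and 484 reads). The differences were 1.59, 1.74 and 1.78 on the log2(TPM + 1) scale.
In vernalized axillary bud, where VRN-A1 stood at 25.8 TPM, they were between 0.0273 and 0.0885 TPM, and their differences of 0.05 to 0.08 were not called. Whether their response differed between apex and bud was not tested. The 2 genes called higher in bud were at place -5 before VRN-A1 and VRN-B1, with 2.06 and 2.58, and were called higher in leaf as well (1.91 and 1.14). The files and the reference give none of these neighbours a name.

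**Figure D5:**
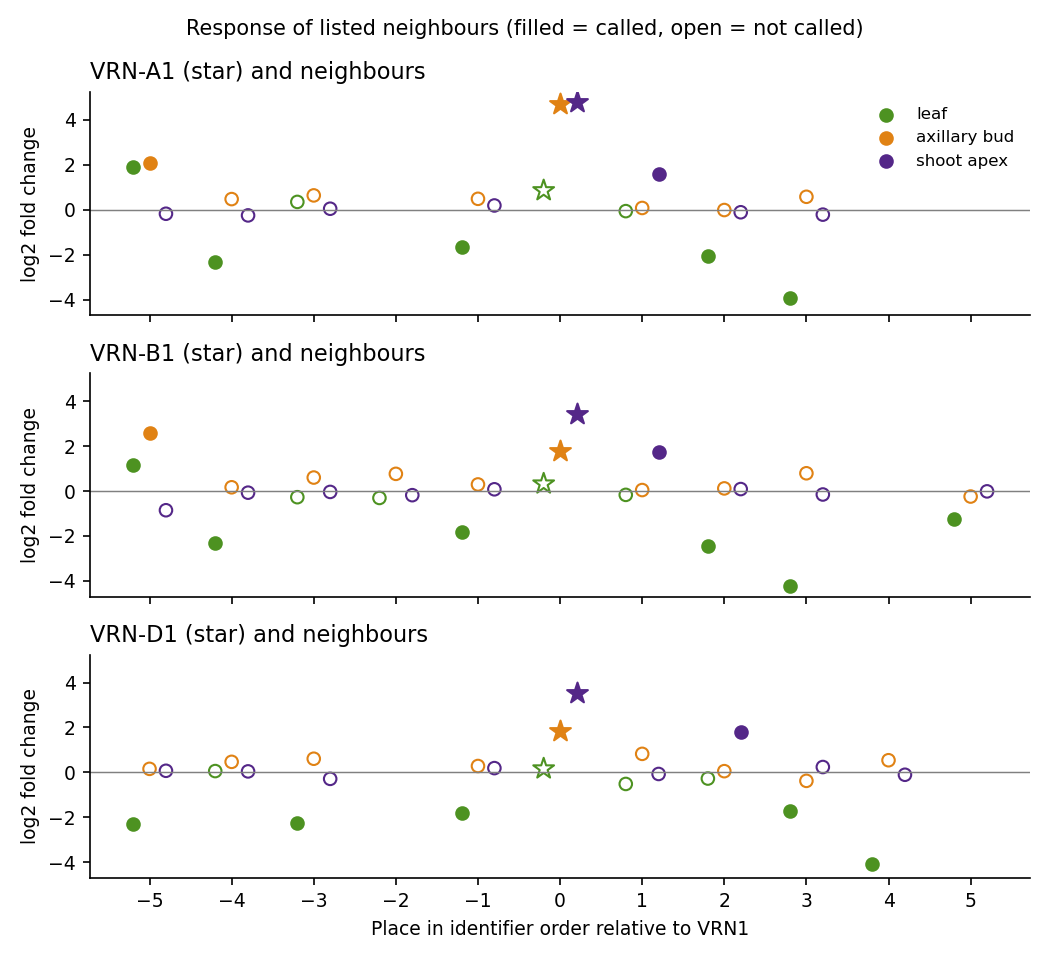
Log2 fold change with vernalization, on the log2(TPM + 1) scale, of VRN1 (stars) and of the tested genes within 5 identifiers on either side, by tissue; filled symbols were called and open ones were not. In shoot apex the only filled symbols beside the stars are the 3 genes at place 1 or 2 after VRN1, at 1.59 to 1.78.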

How the data were processed

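Reads were trimmed (fastp 0.21.0), mapped to the IWGSC RefSeq v1.0 genome (hisat2) and sorted (SAMtools 1.3.1) by the authors, who computed the deposited TPM per gene with TPMCalculator. The labels also list featureCounts and DESeq2, whose output was not used here. Strand use was not given in the sources used here. From the TPM (6 significant digits), whole reads and lengths up to 300000 bases were solved for all 85488 genes above 0 in a library, within a relative tolerance of 6e-06. limma 3.58.1 in R 4.3.3 was fitted to log2(TPM + 1) of genes with a mean above 1 TPM in a group, with 1 coefficient per group and a trend. Responses were called at p under 0.01 and a fold above 2, differences of response at adjusted p under 0.05 and above 1, and triads at adjusted p under 0.05. Triads (1998 read) and 53 SPL genes came from the supplement.

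A pseudocount of 0.1, other filters, median-of-ratios scaling, a replicate block, each tissue alone, untrended moderation and each library left out were tried, and limma-voom on recovered reads was added after the data were seen. Named genes were the members, TaSPL7 and TaSPL15, the genes most and least like VRN1, and neighbours called in a tissue. TaSPL2A, TaSPL2B and TaSPL2D were added after their values were seen. Members and lists were chosen with earlier results of these data known. Of 155467 reference entries 0 matched these identifiers, so other pathway genes, markers, promoters and coordinates were not used here. The fits and the solving of reads were tested on simulated data with Python 3.11.15 and R.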

Additional observations from a re-analysis of the deposited data

Results flagged for a closer look

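The vernalization response on the log2(TPM + 1) scale differed between tissues by a test of the difference itself for these comparisons. The response of axillary bud exceeded that of leaf by 3.85 in VRN-A1, 1.48 in VRN-B1 and 1.66 in VRN-D1. The response of shoot apex exceeded that of leaf by 3.94, 3.10 and 3.38. The response of shoot apex exceeded that of axillary bud by 1.61 in VRN-B1 and 1.71 in VRN-D1. The starting levels, of 0 to 54 reads per library, moved with these differences, and their part in them was not tested. Groups of 2 libraries are too small to test for a deviating library.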

How the results depend on the processing

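In all, 1361 values of 94 results were recomputed under the alternatives, and 1294 kept their direction and their side of the threshold or their size. Of these 1294, 913 were refits without 1 library, many of which left the compared groups untouched. Agreement was lower on reads. With limma-voom 24 stayed the same, 8 became stronger, 3 weaker and 1 reversed. With reads in place of TPM 33 stayed the same, 5 became stronger, 4 reversed and 6 moved in size. With a pseudocount of 0.1 the leaf response of VRN-A1 was 2.80 and of VRN-B1 1.80, both called, shoot apex exceeded axillary bud by 1.00 in VRN-A1, and vernalized leaf exceeded shoot apex by 1.96 (VRN-A1) and 1.76 (VRN-B1), also called. The excess of the VRN-A1 change in apex fell to 0.37 over VRN-B1 and 0.27 over VRN-D1 and was not called. The leaf difference of VRN-B1 from VRN-D1 was 0.74, in change and in vernalized level alike, and passed. After median-of-ratios scaling the leaf response of VRN-A1 was called at 1.32 and the excess of vernalized leaf over shoot apex at 1.13. The VRN-B1 difference of bud from leaf was 0.99 in response and 0.995 in vernalized level, and was no longer called.

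With limma-voom on recovered reads, added after the data were seen, the leaf responses were called at 5.12 (VRN-A1), 7.53 (VRN-B1) and 5.46 (VRN-D1). The response of apex minus that of bud was -2.11 in VRN-A1 (called), and 1.45 (VRN-B1) and 1.62 (VRN-D1), not called. The VRN-B1 response of bud minus leaf was 2.19, not called. Called differences of level were 2.58 between shoot apex and leaf and 2.76 between shoot apex and axillary bud in VRN-A1, and 2.54 (VRN-A1), 5.82 (VRN-B1) and 4.19 (VRN-D1) between vernalized leaf and shoot apex. Reads in place of TPM put VRN-B1 above VRN-D1 in vernalized level by 0.86 (leaf), 0.65 (bud) and 0.59 (apex) and in change by 0.86, 0.64 and 0.59, all past the threshold. In the exact permutation tests of reads this pair differed by 0.35 in level and 0.70 in change.

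With 1 added to each homoeologue the vernalized leaf shares were 44.3% (VRN-A1), 29.4% (VRN-B1) and 26.3% (VRN-D1), those of vernalized bud 79.2%, 10.4% and 10.5%, and that of VRN-B1 in vernalized apex 19.7%. In reads VRN-B1 held 22.1% in vernalized leaf, VRN-B1 and VRN-D1 held 22.0% and 14.6% in vernalized apex, and vernalized bud had 85.3%, 9.13% and 5.58%. With 1 library left out at a time the level of VRN-B1 minus VRN-D1 in vernalized apex ran from -0.29, called without replicate 1 of that group, to 0.043. The cause of these changes was not tested. Length enters TPM and not reads, and 1 was added on both scales. On the scale of reads the added 1 stood for 51.9 to 88.7 reads, depending on the library.

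Counts over all genes moved with scaling. Leaf had 13891 higher and 10241 lower calls after median-of-ratios scaling, against 7421 and 27842, so that the share of higher calls was 57.6% against 21.0%. Axillary bud had 3773 and 3197 against 6888 and 2051, a share of 54.1% against 77.1%. Shoot apex had 2597 lower calls with a pseudocount of 0.1 against 1473.

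Replicate numbers were shared between groups. Deviations of same-numbered libraries correlated at -0.0745 (leaf), 0.00519 (axillary bud) and 0.742 (shoot apex), the last being the highest of 15 group pairs. The numbers were not taken as pairs, although same-numbered apex libraries did share a deviation. With the replicate number as a block the VRN-A1 response in shoot apex was 4.79 as without it. Of 66 results fitted with the block 0 changed their call. The block was common to all tissues, so it cannot show what an effect confined to the apex would do.

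Precision is limited by 2 libraries a group and, before vernalization, by at most 54 reads of VRN-A1 and 2 of either other homoeologue in a library. Differences between non-vernalized groups were therefore not detectable in VRN-B1 and VRN-D1 at this depth.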

Other observations

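Before vernalization nearly all reads of the triad were those of VRN-A1. Of the reads of the 3 homoeologues in both libraries of a group together, it held 16 of 16 (leaf), 18 of 21 (axillary bud) and 94 of 98 (shoot apex), which is 100%, 85.7% and 95.9%. These counts are small, and the vernalized groups gave 71.1%, 85.3% and 63.5% from 947, 24536 and 31207 reads.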
